A study of Rattus norvegicus with 10 samples.

Results

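Glycolysis turns glucose into pyruvate in the cytosol, lactate dehydrogenase interconverts pyruvate and lactate, and the tricarboxylic acid (TCA) cycle oxidises the acetyl group made from pyruvate inside mitochondria. In the brain, glucose enters across the endothelium of capillaries through the transporter encoded by Slc2a1 and enters neurons largely through the one encoded by Slc2a3. Astrocytes are known for glycolysis and lactate release, and neurons for oxidation of pyruvate and lactate. The genes described here are 36 enzymes, transporters and kinases of these steps, chosen by name. Earlier results of these data were known when they were chosen. Rows of the count table with these symbols were summed by symbol. All 36 were found among the 13670 symbols of the table, and all 36 passed the filter on low counts, which left 12000 genes for testing.

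The data are messenger RNA sequencing libraries of the left hippocampus of 10 female TgF-344AD rats, 1 rat per library. These Fischer rats carry human transgenes for amyloid precursor protein and presenilin that act from a prion promoter, and both groups carry them. In the BT-11 group, 5 rats were fed BT-11 in their chow from 5 months of age and for 6 months. BT-11 is a small molecule that binds LANCL2, a signalling protein. The untreated group of 5 rats ate rodent chow without the drug. All rats were 11 months old and were perfused with saline under ketamine and xylazine before the tissue was frozen. The series text calls the animals male once and female elsewhere, and every sample is labelled female. The dose of BT-11 in the chow is not given in the sources used here, and wild-type rats were not analysed here.

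Libraries held between 13721673 and 19700443 counts, and group totals did not differ detectably (exact permutation test, two-sided, p = 0.456). The 36 genes together took 1.29% to 1.59% of the counts of a library. Markers of brain cell types were found in every library, at unlike levels. The neuronal Snap25 ran between 2399.9 and 2934.5 CPM with BT-11 and between 1789.5 and 2628.3 CPM without it. The microglial Aif1 ran between 15.8 and 22 CPM with BT-11 and between 14.4 and 23.4 CPM without it. Hbb of red blood cells ran between 2.78 and 93.8 CPM with BT-11, highest in BT-11 library 4, and between 2.45 and 4.36 CPM without it. Its log2 fold change was 2.95 (unadjusted p = 0.00289, adjusted p = 0.8, edgeR). CPM are depth-scaled counts, here with TMM scaling of the library sizes. BT-11 library 3 and untreated library 4 were rich in choroid plexus transcripts, and BT-11 library 3 had the lowest share of ribosomal RNA counts (5.63%, against up to 11.1% elsewhere). In whole tissue, fewer cells of a type and less RNA per cell cannot be told apart.

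For none of the 36 transcripts did the difference between BT-11 and untreated rats pass edgeR's quasi-likelihood test, with a smallest Benjamini-Hochberg adjusted p of 0.809. The test called 0% of the 12000 genes, so the members' count of 0 matches the background. At an unadjusted p under 0.05 there were 0 of 36 members, beside 5.96% of all genes. DESeq2 called 8 of the 10738 genes it adjusted (0.0745%) and none of the 36 members. No member had CPM ranges of the groups that did not overlap, beside 0.842% of all genes. The log2 fold changes of the members, BT-11 over untreated, ran from -0.09 for Aldoc to 0.23 for Slc16a7. Of the members 24 were higher and 12 lower, with a median of 0.03, while 50% of all genes were higher and their median was -0.000157. This small lean was not stable: the median turned to -0.0126, with 16 members higher, when the ribosomal RNA share was a covariate, a setting chosen after seeing the data. The median was 0.0112 without BT-11 library 3, 0.00956 without untreated library 3 and 0.00478 without untreated library 2, with 19 members higher each time.

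The measurements were precise enough to bound the differences. For 31 of the 36 members the 95% interval of the fold change lay within 1.25-fold either way (0.322 on the log2 scale), which was so for 51.4% of all genes. The 5 members with wider intervals were Slc2a3, Hk2, Pfkl, Aldoc and Slc16a7. The lowest lower bound of any member was -0.33 and the highest upper bound was 0.61, for Slc16a7. The standard error of a member's log2 fold change had a median of 0.0683, against 0.103 over all genes.

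**Figure D1:**
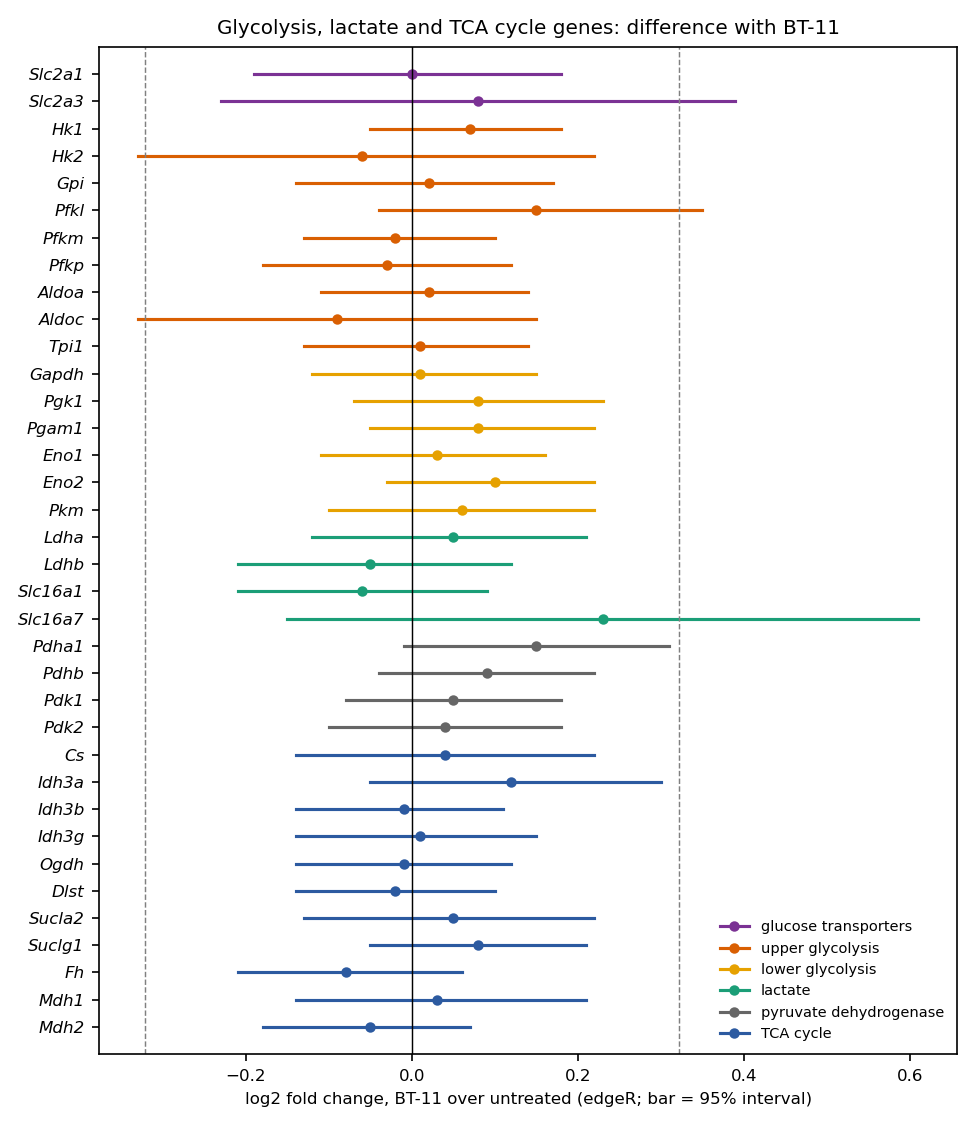
Log2 fold change of each of the 36 genes, BT-11 over untreated (5 rats each), with its 95% interval from edgeR; dashed lines mark 1.25-fold either way. Every interval includes 0, and 5 of them reach past a dashed line.

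Neither glucose transporter transcript differed detectably between the groups, and the interval of Slc2a3 reached past 1.25-fold. Slc2a1, which encodes the transporter of the blood-brain barrier and of glia (rn6 chromosome 5, 138154680 to 138182898), stood at 131.2, 144.8, 161.6, 172.7 and 147.4 CPM in BT-11 libraries 1 to 5. It stood at 152.8, 154.5, 173.4, 137.1 and 140.7 CPM in untreated libraries 1 to 5. Both groups spanned nearly the same range, and the means were 151.5 ± 16 CPM in BT-11 rats and 151.7 ± 14.3 CPM in untreated rats (SD, n = 5 each). Its direction changed with the setting, and its log2 fold change was 0.22 with the level of myelin genes as a covariate (unadjusted p = 0.0336, adjusted p = 0.911, edgeR). Slc2a3, which encodes the high-affinity transporter of neurons, had 47, 52.1, 40.4, 44 and 48.3 CPM in BT-11 libraries 1 to 5. Untreated libraries 1 to 5 had 45.8, 47.6, 26.7, 50.5 and 48 CPM. Untreated library 3 was far below the other 9 libraries, which overlapped. The log2 fold change of Slc2a3 was 0.08 ± 0.143 (SE, 95% interval -0.23 to 0.39), and it was -0.05 without untreated library 3. When myelin level was a covariate it was -0.33 (unadjusted p = 0.0394, adjusted p = 0.911). The table holds Slc2a3 at 2 places on chromosome 4 (155552120 to 155563168 and 155752447 to 155763501) with the same counts at both, and the sum is used here.

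In upper glycolysis, which phosphorylates glucose and splits it into triose phosphates, 5 genes were higher and 4 lower, none of them passing the test. Hk1, the main hexokinase of brain, had 634.9, 678.1, 692.7, 694.0 and 664.8 CPM in BT-11 libraries 1 to 5 and 674.2, 613.4, 608.3, 660.9 and 653.9 CPM in untreated libraries 1 to 5. The groups overlapped, and the log2 fold change was 0.07 ± 0.054 (SE). Hk2, the hexokinase induced by insulin and hypoxia, was far lower, at 10.6 ± 1.22 CPM in BT-11 rats and 11.1 ± 1.85 CPM in untreated rats (SD, n = 5 each). Per kilobase of transcript, Hk2 made 1.39% ± 0.131 of the sum of both hexokinases in BT-11 rats and 1.53% ± 0.306 in untreated rats (SD, n = 5 each).

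Phosphofructokinase, the main control point of glycolysis, is a tetramer of liver (Pfkl), muscle (Pfkm) and platelet (Pfkp) subunits. Pfkl was measured at 187.1, 228.5, 233.1, 214.4 and 234.9 CPM in BT-11 libraries 1 to 5 and at 195.3, 166.4, 188.2, 227.8 and 208.8 CPM in untreated libraries 1 to 5. The mean of untreated rats was exceeded in 4 of 5 BT-11 libraries, and the log2 fold change was 0.15 ± 0.0897 (SE; unadjusted p = 0.109, adjusted p = 0.812, edgeR). Pfkm was the least variable of the 36 genes between animals, with 517.3 ± 17.7 CPM in BT-11 rats and 524.2 ± 21.1 CPM in untreated rats (SD, n = 5 each). Per kilobase, the muscle subunit made 47.9% ± 1.14 of the phosphofructokinase transcripts in BT-11 rats and 48.9% ± 1.24 in untreated rats. The platelet subunit made 31.8% ± 1.12 in BT-11 rats and 32.7% ± 2.17 in untreated rats, and the liver subunit 20.4% ± 1.3 in BT-11 rats and 18.4% ± 1.74 in untreated rats (SD, n = 5 each).

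Aldolase splits the phosphorylated hexose. Aldoa, its widespread form, averaged 1292.4 ± 70.7 CPM in BT-11 rats and 1279.0 ± 74.7 CPM in untreated rats, and Aldoc, the brain form that marks astrocytes, averaged 850.3 ± 139 CPM in BT-11 rats and 905.1 ± 94.7 CPM in untreated rats (SD, n = 5 each). Aldoc ranged from 656.0 to 983.6 CPM with BT-11 and from 810.6 to 1016.2 CPM without it, the low end being BT-11 library 1. Of the counts of Aldoa 77% fell to 1 of its 3 transcript rows, whose reads overlap and are divided by estimate. The other members of this stretch, Gpi and Tpi1, had log2 fold changes of 0.02 ± 0.0708 and 0.01 ± 0.0625 (SE). Tpi1 and Eno2 both lie on chromosome 4, and the table holds a second copy of both on chromosome 9 with all but equal counts. Their sums are used.

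All 6 genes of lower glycolysis, which yields ATP and pyruvate, had values above 0, from 0.01 for Gapdh to 0.10 for Eno2 on the log2 scale, and none passed the test. Gapdh (chromosome 4, 157676396 to 157680269) had 1352.1, 1436.4, 1592.1, 1472.5 and 1450.5 CPM in BT-11 libraries 1 to 5, against 1590.3, 1333.6, 1451.4, 1408.5 and 1457.4 CPM in untreated libraries 1 to 5. The groups overlapped fully, with means of 1460.7 ± 86.5 CPM in BT-11 rats and 1448.2 ± 93.5 CPM in untreated rats (SD, n = 5 each). The sign of Gapdh turned with upper-quartile scaling (-0.0018). Gapdh has many processed copies in rodent genomes, so part of its reads may be assigned elsewhere.

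Enolase has a neuronal form, Eno2, and a form of glia and other cells, Eno1. Eno2 had 1259.7, 1325.2, 1323.0, 1398.8 and 1308.6 CPM in BT-11 libraries 1 to 5 and 1320.2, 1178.5, 1145.5, 1279.2 and 1266.7 CPM in untreated libraries 1 to 5. All 5 BT-11 values exceeded the mean of untreated rats, yet the ranges overlapped, and the log2 fold change of 0.10 ± 0.0561 (SE) had an unadjusted p of 0.112 (adjusted p = 0.812, edgeR). Pgam1, phosphoglycerate mutase, had 641.0, 680.8, 679.3, 640.3 and 622.6 CPM in BT-11 libraries 1 to 5 and 626.2, 573.0, 567.7, 658.6 and 653.4 CPM in untreated libraries 1 to 5. Untreated libraries 2 and 3 were low and the others lay among the BT-11 values. Pkm, pyruvate kinase, had 796.8, 916.7, 937.3, 918.8 and 875.1 CPM in BT-11 libraries 1 to 5, against 926.3, 793.3, 743.8, 916.8 and 888.6 CPM in untreated libraries 1 to 5. The table holds Pkm as a single transcript row, so its splice forms of neurons and astrocytes are not told apart. Pgk1 and Eno1 had log2 fold changes of 0.08 ± 0.0693 and 0.03 ± 0.0633 (SE).

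Lactate dehydrogenase is a tetramer of Ldha subunits, which favour lactate formation and are known targets of hypoxia-inducible factor, and Ldhb subunits, which favour lactate use. The stretches just upstream of both genes are shown to compare the core letters of the hypoxia response element in them. The letters searched were ACGTG and GCGTG, both on either strand, and overlapping matches were counted each, so that a CACGTG holds a match on each strand. Capitals mark every match. The sequences are the 250 bases before the start site in RefSeq, build GRCr8, read 5′ to 3′ in the sense of the gene. Pdhb is added as the member with most matches by this count, 5, of which 2 CACGTG strings give 4. Slc2a1 had 4 matches and 0 CACGTG strings, so the rank of Pdhb rests on counting both strands.
Ldha, chr1:106507842-106508091, plus strand: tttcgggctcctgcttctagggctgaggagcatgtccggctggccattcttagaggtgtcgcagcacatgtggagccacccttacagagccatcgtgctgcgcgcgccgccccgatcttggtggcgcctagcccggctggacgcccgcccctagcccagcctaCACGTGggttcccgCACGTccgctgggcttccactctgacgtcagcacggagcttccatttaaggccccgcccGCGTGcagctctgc
Ldhb, chr4:177177409-177177658, minus strand: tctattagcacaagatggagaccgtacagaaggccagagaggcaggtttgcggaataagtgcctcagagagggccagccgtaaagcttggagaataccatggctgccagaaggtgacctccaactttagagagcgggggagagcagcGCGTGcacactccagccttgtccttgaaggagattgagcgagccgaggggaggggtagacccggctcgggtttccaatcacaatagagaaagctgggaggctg
Pdhb, chr15:19182539-19182788, plus strand: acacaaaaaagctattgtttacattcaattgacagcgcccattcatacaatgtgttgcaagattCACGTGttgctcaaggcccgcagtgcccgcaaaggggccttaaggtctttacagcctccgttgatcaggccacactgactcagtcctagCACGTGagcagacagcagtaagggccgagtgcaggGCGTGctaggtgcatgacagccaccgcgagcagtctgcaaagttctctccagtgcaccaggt
Ldha had 3 matches of ACGTG and 1 of GCGTG, Ldhb had 0 of ACGTG and 1 of GCGTG, and Pdhb had 4 of ACGTG and 1 of GCGTG. Of the 33 members with an entry (Slc2a3, Pgk1 and Idh3a had none), 23 held at least 1 match of either (69.7%). This was so for 39.6% of all 27457 symbols with an upstream stretch, which include genes that were not tested here. For ACGTG alone it was 15 members (45.5%), against 18.1% of the symbols. A symbol with several start sites took its highest count over their windows, of which there were 33469 for the 27457 symbols. These members also had a median of 17 CpG pairs, counted in the same way, against 6 over all symbols. The parts of base composition, of the number of start sites and of detection in this tissue in the difference were not tested. A match is a string of letters and not a shown binding site.

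Ldha measured 358.1, 362.3, 356.9, 336.6 and 298.8 CPM in BT-11 libraries 1 to 5 and 348.6, 293.0, 313.9, 352.3 and 351.4 CPM in untreated libraries 1 to 5. Ldhb measured 415.3, 440.3, 541.0, 476.1 and 470.7 CPM in BT-11 libraries 1 to 5 and 527.8, 460.9, 499.1, 461.2 and 470.5 CPM in untreated libraries 1 to 5. Both genes overlapped between groups, with log2 fold changes of 0.05 ± 0.0747 for Ldha and -0.05 ± 0.0749 for Ldhb (SE). Per kilobase, the Ldha subunit made 37.9% ± 3.18 of the lactate dehydrogenase transcripts in BT-11 rats and 36.4% ± 2.13 in untreated rats (SD, n = 5 each). Slc16a1, the lactate transporter of endothelium and glia, averaged 37 ± 2.98 CPM in BT-11 rats and 38.7 ± 2.23 CPM in untreated rats (SD, n = 5 each). Slc16a7, the high-affinity lactate transporter of neurons, was the least precisely measured member, at 12.3, 9.52, 8.8, 8.7 and 8.64 CPM in BT-11 libraries 1 to 5 and 5.69, 10.7, 6.27, 8.78 and 9.47 CPM in untreated libraries 1 to 5. Its log2 fold change of 0.23 ± 0.176 (SE) had a 95% interval from -0.15 to 0.61, and it was 0.12 without BT-11 library 1 and -0.016 when myelin level was a covariate.

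Pyruvate dehydrogenase commits pyruvate to oxidation, and its kinases Pdk1 and Pdk2 switch it off. Pdha1, its catalytic alpha subunit (chromosome X, 37329779 to 37343411), had the smallest p of the 36 members. It had 308.0, 322.6, 317.2, 306.6 and 285.7 CPM in BT-11 libraries 1 to 5, against 266.8, 263.7, 244.6, 303.0 and 311.0 CPM in untreated libraries 1 to 5. All 5 BT-11 values exceeded the mean of untreated rats, but untreated libraries 4 and 5 lay among them. The log2 fold change was 0.15 ± 0.0734 (SE), with an unadjusted p of 0.0643 and an adjusted p of 0.809 in edgeR. Pdhb, the beta subunit, had 122.3, 122.5, 119.2, 116.3 and 115.2 CPM in BT-11 libraries 1 to 5 and 111.6, 105.4, 103.0, 114.7 and 125.4 CPM in untreated libraries 1 to 5. The untreated values spread on both sides of the BT-11 values, and the log2 fold change was 0.09 ± 0.0614 (SE). Pdk1 and Pdk2 had log2 fold changes of 0.05 ± 0.0603 and 0.04 ± 0.064 (SE). Per kilobase, Pdk2 made 83.9% of the kinase pair in both groups (SD 0.966 in BT-11 rats and 0.651 in untreated rats, n = 5 each).

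Of the 11 genes listed under the TCA cycle, the cytosolic Mdh1 among them, 6 were higher and 5 lower. Their median log2 fold change was 0.01, and all 11 intervals lay within 1.25-fold. Cs, citrate synthase, had 165.4, 173.5, 168.4, 170.6 and 161.3 CPM in BT-11 libraries 1 to 5 and 154.9, 172.2, 131.4, 183.5 and 173.0 CPM in untreated libraries 1 to 5. The BT-11 values lay within the untreated range, whose low end was untreated library 3. Ogdh, the catalytic subunit of oxoglutarate dehydrogenase, had 224.4, 244.4, 243.4, 249.5 and 237.6 CPM in BT-11 libraries 1 to 5 and 253.3, 234.9, 217.0, 256.5 and 246.8 CPM in untreated libraries 1 to 5. Idh3a, the catalytic subunit of isocitrate dehydrogenase, had 261.9, 255.8, 247.4, 250.5 and 233.0 CPM in BT-11 libraries 1 to 5 and 230.8, 215.6, 191.7, 259.3 and 250.0 CPM in untreated libraries 1 to 5. Untreated libraries 1 to 3 were below all BT-11 values of Idh3a and untreated libraries 4 and 5 were among them, with a log2 fold change of 0.12 ± 0.0801 (SE; unadjusted p = 0.153, adjusted p = 0.816, edgeR). The partner subunits Idh3b and Idh3g had log2 fold changes of -0.01 ± 0.0579 and 0.01 ± 0.0673 (SE). Mdh1 and Mdh2, the cytosolic and mitochondrial malate dehydrogenases, had 0.03 ± 0.0812 and -0.05 ± 0.0576 (SE). The remaining 4 genes, Dlst, Sucla2, Suclg1 and Fh, which act between oxoglutarate and malate, ran from -0.08 for Fh to 0.08 for Suclg1.

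**Figure D2:**
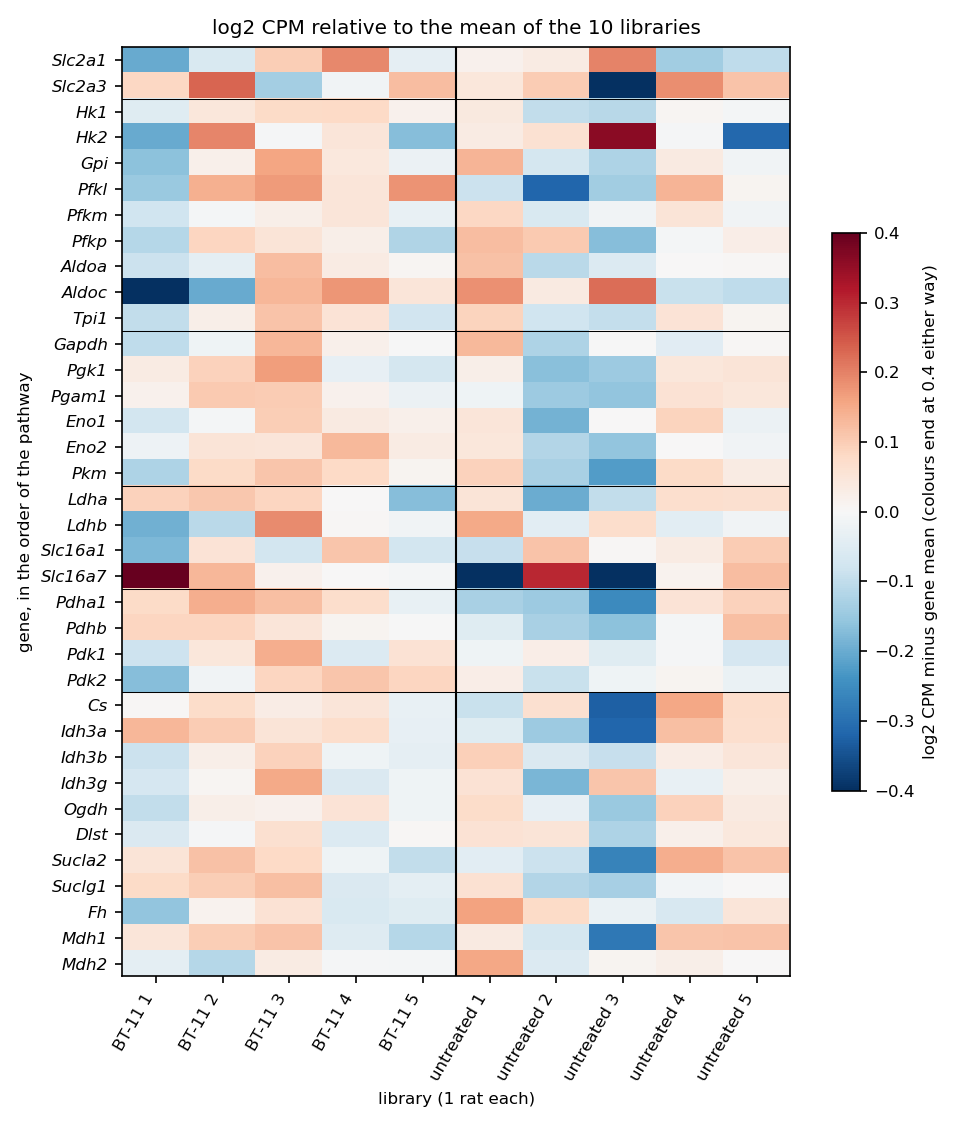
Deviation of each gene's log2 CPM from its mean over the 10 libraries, with BT-11 libraries left of the line and untreated libraries right of it; rows follow the pathway. BT-11 library 3 held 33 of 36 genes above their mean and untreated library 3 held 8.

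Single libraries stood apart across many members. In BT-11 library 3, 33 of the 36 members lay above their own mean and 13 had their highest value. In untreated library 3, 8 members lay above their mean and 16 had their lowest value, while Slc2a1, Hk2 and Aldoc had their highest values there. BT-11 library 1 held the lowest value of 10 members. The median deviation of the members was 0.09 in BT-11 library 3 and -0.12 in untreated library 3 on the log2 scale, while that of all genes was 0.01 in both. BT-11 library 3 was also the library with the lowest ribosomal RNA share, and untreated library 3 the one with the lowest level of neuronal markers (8.42, against 8.66 to 8.98 in the others, mean log2(CPM + 1) of 10 genes) and the highest of mature oligodendrocyte and myelin markers (8.36, against 7.22 to 7.80 in BT-11 libraries, 14 genes).

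Per kilobase of transcript, the levels spanned from Gapdh, at 1147.5 ± 67.9 CPM per kb in BT-11 rats and 1137.7 ± 73.5 in untreated rats, to Hk2, at 2.92 ± 0.335 in BT-11 rats and 3.05 ± 0.51 in untreated rats (SD, n = 5 each). After Gapdh came Aldoa (904.1 ± 50.1 CPM per kb in BT-11 rats and 894.1 ± 51.9 in untreated rats). Eno2 (596.5 ± 22.5 in BT-11 rats and 558.2 ± 33 in untreated rats) and Aldoc (537.8 ± 88 in BT-11 rats and 572.5 ± 59.9 in untreated rats) came next and did not differ beyond their spread. Among the genes listed under the TCA cycle the cytosolic Mdh1 was highest, at 384.7 ± 26 CPM per kb in BT-11 rats and 375.9 ± 41.4 in untreated rats. Mdh1 is the sum of 2 rows at the same place and length with the same counts (50% of its counts each). The mitochondrial Mdh2 came next, at 171.7 ± 6.58 in BT-11 rats and 178.2 ± 9.73 in untreated rats. Fh was lowest, at 35.1 ± 2 in BT-11 rats and 37 ± 2.28 in untreated rats. The 3 subunits of isocitrate dehydrogenase were close to each other, with Idh3a making 37.4% ± 1.76 of their sum in BT-11 rats and 35.3% ± 2.69 in untreated rats (SD, n = 5 each). The transporters and regulators Slc2a1, Slc2a3, Slc16a1, Slc16a7 and Pdk1 were below all enzymes other than Hk2, Fh and Dlst.

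**Figure D3:**
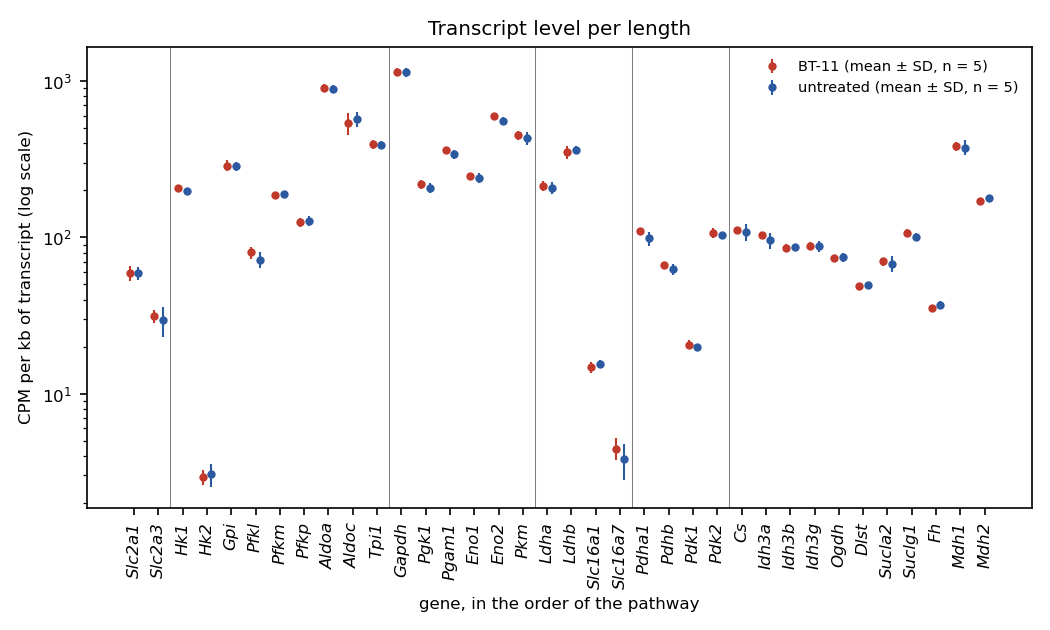
Mean level of each gene in CPM per kilobase of transcript (log axis) with the SD over 5 rats, BT-11 left of untreated; vertical lines separate the steps of the pathway. Gapdh is highest at 1147.5 and 1137.7 CPM per kb in BT-11 and untreated rats, and Hk2 lowest at 2.92 and 3.05.

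Ratios of isozymes or partner genes within a library do not depend on scaling, and 10 pairs were compared. No ratio's difference between groups passed exact permutation tests, two-sided, over all assignments of the libraries (0 of 10 at an unadjusted p under 0.05). The smallest p was that of Pfkl over Pfkm, whose count ratio was 0.38, 0.442, 0.441, 0.398 and 0.461 in BT-11 libraries 1 to 5 and 0.354, 0.333, 0.365, 0.422 and 0.405 in untreated libraries 1 to 5. All 5 BT-11 libraries lay above the untreated mean, with a log2 difference of 0.18 (exact p = 0.0714, adjusted p = 0.612 over the 10 pairs), and untreated libraries 4 and 5 lay among them. Slc16a1 over Slc16a7 was 2.71, 4.11, 4.07, 4.68 and 4.14 in BT-11 libraries 1 to 5 and 6.19, 3.83, 6.01, 4.39 and 4.26 in untreated libraries 1 to 5. Its log2 difference of -0.32 (exact p = 0.19, adjusted p = 0.612) was -0.19 without BT-11 library 1. Eno1 over Eno2 was 0.319, 0.317, 0.342, 0.309 and 0.327 in BT-11 libraries 1 to 5 and 0.331, 0.314, 0.369, 0.351 and 0.328 in untreated libraries 1 to 5, a log2 difference of -0.07 (exact p = 0.198, adjusted p = 0.612). Ldha over Ldhb averaged 0.737 ± 0.1 in BT-11 rats and 0.687 ± 0.0636 in untreated rats (SD, n = 5 each; exact p = 0.405, adjusted p = 0.612). The smallest p this design allows is 0.00794, which alone among 10 pairs would adjust to 0.0794, so missing 0.05 after adjustment says nothing about a single pair.

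**Figure D4:**
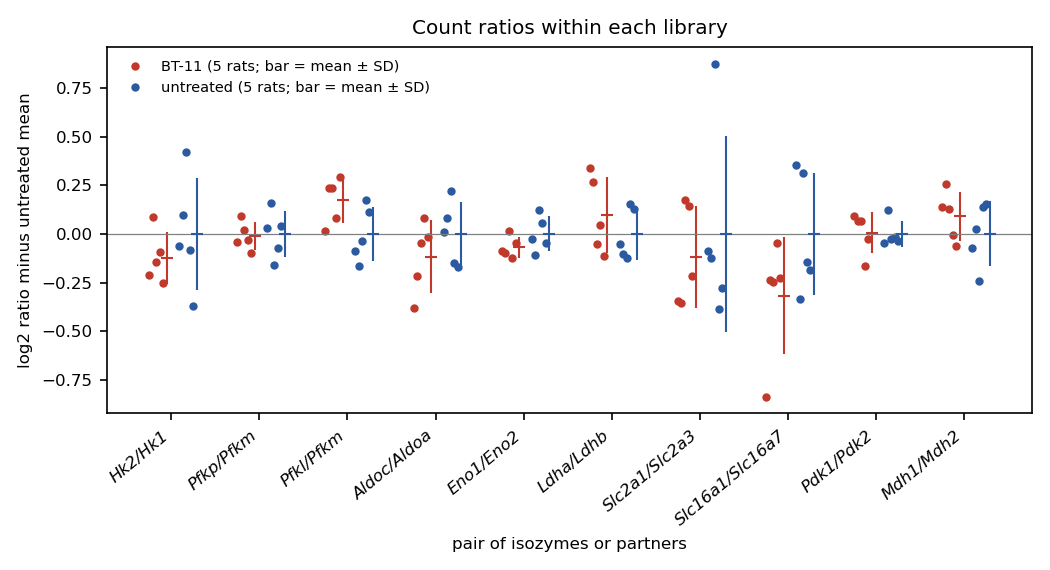
Log2 count ratio of 10 gene pairs in each library, less the mean of the untreated libraries, BT-11 left of untreated; bars give the mean and SD of 5 rats. Groups overlap for every pair, and untreated library 3 stands apart for Slc2a1 over Slc2a3 at a log2 ratio of 2.7.

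The members varied little between animals. The coefficient of variation over the 10 libraries had a median of 6.75% and ran from 3.6% for Pfkm to 21.4% for Slc16a7, and 31 members were under 10%, while the median over all genes was 11.7%. High counts go with low variation: 23 members were in the top 10% of genes by level, where the median over all genes was 8.42%. Against genes of like level (bins of 10% of the genes), 25 of 36 members varied less than the median gene. Gapdh and Pgk1, which are often used to normalise quantitative PCR, had coefficients of variation of 5.85% and 7.23%, beside 5.79% for Actb, 5.21% for Sdha, 7.59% for Ppia, 8.42% for Hprt1 and 17.4% for Rpl13a. Of 14 such reference genes, Sdha was the least variable here, followed by Actb and Gapdh.

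Several members went with the levels of cell type markers from library to library in pooled tests, which was examined after seeing the data for 4 marker lists and 36 members (144 relations). Slc2a1 went with the mean level of 8 endothelial markers (Pearson r = 0.95, permutation p = 0.0001, adjusted p = 0.0144; Spearman rho = 0.94, permutation p = 0.00037, adjusted p = 0.0533; n = 10). It was 0.89 without the 2 libraries farthest from the median, BT-11 library 1 and untreated library 3. Aldoc went with the same level (r = 0.87, permutation p = 0.00124, adjusted p = 0.0338; rho = 0.82, permutation p = 0.00595, adjusted p = 0.144), and r was 0.75 without those libraries. Its adjusted p by Pearson was 0.0926 with BT-11 library 3 and untreated library 4 left out, with r at 0.87. With the neuronal level Slc2a1 had r = -0.73 and rho = -0.82, and Aldoc r = -0.75 and rho = -0.90 (adjusted permutation p = 0.139 and 0.144 for Slc2a1, 0.137 and 0.0634 for Aldoc). With the astrocyte level r was 0.71 for Slc2a1 and 0.56 for Aldoc (adjusted permutation p = 0.184 and 0.289). Endothelial markers stood at 4.41 to 4.95 in BT-11 libraries and 4.53 to 5.08 in untreated libraries, with 1 of 8 tested genes higher and 7 lower with BT-11.

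Idh3a went with the level of 10 neuronal markers (r = 0.95, permutation p = 0.00021, adjusted p = 0.0151; rho = 0.87, permutation p = 0.00212, adjusted p = 0.102). Without untreated libraries 1 and 3, the farthest from the median, r was 0.87. Pdha1 (r = 0.91), Sucla2 (r = 0.89) and Pdhb (r = 0.88) behaved likewise, with adjusted permutation p of 0.0263, 0.0338 and 0.0263, and r of 0.77, 0.75 and 0.80 without those libraries. Their Spearman rho was 0.76, 0.76 and 0.77, with an adjusted permutation p of 0.226 each. The call of Sucla2 was lost with BT-11 library 3 and untreated library 4 left out (r = 0.91, adjusted permutation p = 0.0624). For Slc2a3 r was 0.82 (permutation p = 0.0133, adjusted p = 0.137) and rho was 0.73 (permutation p = 0.0205, adjusted p = 0.234). Its r was 0.45 without those libraries, so the size of the pooled r depended on them. In all, 6 of the 144 relations passed by Pearson's r and 0 by Spearman's rho. Levels and members come from the same libraries and share their scaling, and the pooled tests leave out the groups. With group means removed from both, none of the 144 relations passed by either measure (exact permutation within groups). The r values were then 0.96 for Slc2a1 and 0.86 for Aldoc with the endothelial level (adjusted exact p = 0.06 and 0.0771). With the neuronal level they were 0.93 for Idh3a, 0.89 for Pdha1, 0.92 for Sucla2, 0.84 for Pdhb and 0.84 for Slc2a3 (adjusted exact p = 0.0771, 0.102, 0.0887, 0.162 and 0.0771). Slc2a1 and Aldoc had r = -0.83 and -0.73 with that level (adjusted exact p = 0.0771 each). With the mature oligodendrocyte and myelin level r was 0.80 for Slc2a1, 0.74 for Aldoc and -0.80 for Slc2a3 (adjusted exact p = 0.149, 0.182 and 0.0771). It was -0.67 for Idh3a, -0.46 for Pdha1, -0.61 for Sucla2 and -0.48 for Pdhb (adjusted exact p = 0.176, 0.525, 0.305 and 0.484).

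Neuronal markers were at 8.80 to 8.98 in BT-11 libraries and 8.42 to 8.93 in untreated libraries, with 8 of 10 genes higher with BT-11. All 14 mature oligodendrocyte and myelin markers were lower with BT-11, at list levels of 7.22 to 7.80 in BT-11 libraries and 7.78 to 8.36 in untreated libraries, and none of these markers passed edgeR's test. Astrocyte markers were at 8.08 to 8.38 in BT-11 libraries and 8.11 to 8.32 in untreated libraries. The part of these marker levels in the members with the smallest p, Pdha1, Idh3a and Pdhb among them, was not tested. When myelin level was a covariate, Idh3a had a log2 fold change of -0.042 and 18 of 36 members were higher. The ranges of myelin level in the groups barely overlapped, so such a fit cannot tell myelin level and treatment apart.

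**Figure D5:**
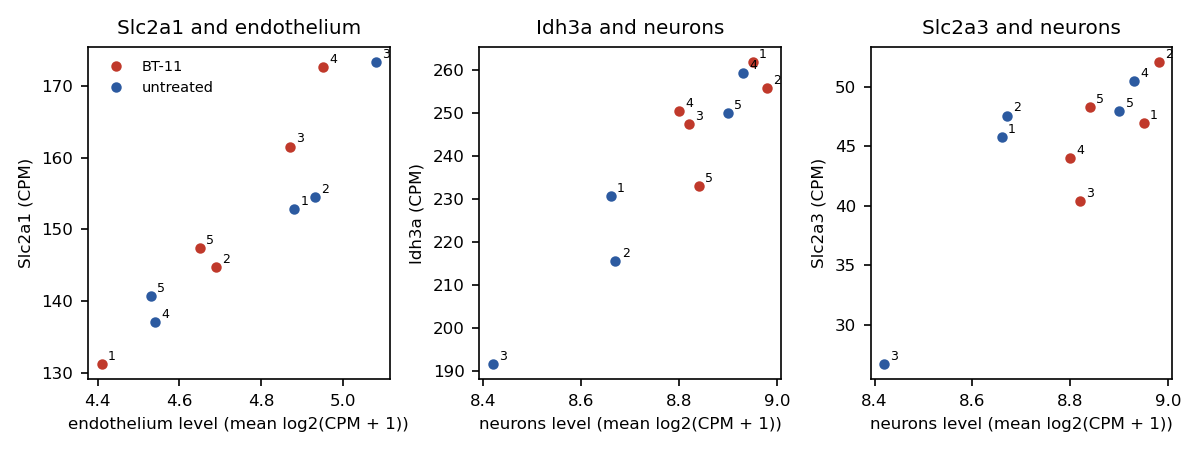
CPM of Slc2a1, Idh3a and Slc2a3 in each library against the mean level of endothelial or neuronal markers; digits name the library within its group. Pearson's r on log2(CPM + 1) over all 10 libraries was 0.95 for Slc2a1 with the endothelial level. It was also 0.95 for Idh3a with the neuronal level. With group means removed neither relation passed (adjusted exact permutation p = 0.06 and 0.0771). Slc2a3 was lowest in untreated library 3 (26.7 CPM).

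The other genes of the pathway were read from 8 lists with 91 symbols, of which 80 were tested. None of them passed edgeR's test. Of the 80 genes 36 were higher and 44 lower, where 50% of all genes were higher, and the median log2 fold change was -0.01. At an unadjusted p under 0.05 in edgeR there were 5 of 80, beside a like share of all genes (5.96%). Among 15 tested regulators of glucose metabolism 5 were higher and 10 lower. Txnip, the thioredoxin-interacting protein that restrains glucose uptake and is induced by glucose, had the smallest p. Txnip measured 37.1, 36.8, 66, 49.6 and 45.4 CPM in BT-11 libraries 1 to 5 and 66.4, 76.6, 85.9, 55.8 and 59 CPM in untreated libraries 1 to 5. BT-11 library 3 lay among the untreated values and the other 4 BT-11 libraries below all of them. The log2 fold change was -0.55 ± 0.162 (SE), with an unadjusted p of 0.00514 and an adjusted p of 0.8. Egln3, a prolyl hydroxylase of the hypoxia response, had 18, 15.4, 22.5, 22.2 and 19.5 CPM in BT-11 libraries 1 to 5 and 24.5, 23.4, 24.3, 23.9 and 20.9 CPM in untreated libraries 1 to 5 (log2 fold change -0.26 ± 0.101 SE, unadjusted p = 0.0244, adjusted p = 0.809). Ppargc1b, a coactivator of mitochondrial genes, had a log2 fold change of -0.26 ± 0.125 (SE).

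In the list of other TCA cycle and anaplerotic genes 6 of 16 were higher, and Me1, the cytosolic malic enzyme, had the smallest p, with 139.7 ± 13.3 CPM in BT-11 rats and 117.7 ± 18.6 CPM in untreated rats (SD, n = 5 each; unadjusted p = 0.0326, adjusted p = 0.809, edgeR). Of the other pyruvate dehydrogenase genes 6 of 8 were higher, among them Dlat and Pdhx, 2 further components of the complex, at log2 fold changes of 0.24 ± 0.124 and 0.16 ± 0.0831 (SE). Neither passed (adjusted p = 0.809 each), and Dlat turned to -0.0043 when myelin level was a covariate. Of the other glycolysis genes 5 of 9 were higher. Pfkfb3, which makes the activator of phosphofructokinase, had a log2 fold change of 0.29 ± 0.148 (SE), and the low transcript Pklr, the pyruvate kinase of liver and red cells, was at 0.561 ± 0.26 CPM in BT-11 rats and 0.964 ± 0.273 CPM in untreated rats (SD, n = 5 each). Of the shuttle genes 4 of 7 were higher, and Gpd1, the cytosolic glycerol phosphate dehydrogenase that oligodendrocytes express, had a log2 fold change of -0.29 ± 0.135 (SE; unadjusted p = 0.048, adjusted p = 0.809). Pgm2l1, a brain phosphoglucomutase relative, had the smallest p of the glycogen list, with a log2 fold change of 0.26 ± 0.139 (SE), where 3 of 11 genes were higher. Rpe, an epimerase, had the smallest p of the pentose phosphate list (unadjusted p = 0.051, adjusted p = 0.809, edgeR), with a log2 fold change of 0.16 ± 0.0746 (SE), where 3 of 8 were higher. Of 6 other genes of lactate and pyruvate transport 4 were higher, and none had an unadjusted p under 0.05.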

How the data were processed

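Per the submitters' processing notes, the build was rn6 and the tools named are STAR 2.7.9a, bcl2fastq 2.19.1.403, DESeq2 and Partek. What each did, how reads were counted, and with which annotation and strand option, is not given in the sources used here. Per the labels' protocols, strand-specific libraries were made with a KAPA mRNA kit. The authors deposited 2 tables of 14806 transcript rows, one with estimated counts (expected counts) per row and one with a normalized signal, in which each library's counts are multiplied by 1 factor (0.822 to 1.15). Coordinates are as deposited, and whether starts count from 0 or 1 is not stated.

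Rows were summed by symbol (785 symbols had several rows) and rounded. The design had assumed coding lengths from a protein table; the row lengths of the deposited table were used in their place. Genes were kept by filterByExpr and tested with the quasi-likelihood test of edgeR 4.0.16 after TMM scaling, two-sided and without covariates, as BT-11 over untreated, Benjamini-Hochberg adjusted over all 12000 genes, threshold 0.05. A standard error is the log2 fold change divided by the root of F, and intervals are 95%. Each library is 1 rat. CPM, SD and coefficients of variation use TMM scaling. Ratios used counts with 0.5 added and exact permutation tests. Correlations used log2(CPM + 1), 100000 permutations and adjustment over 144 relations, and again with group means removed and all 14400 permutations within groups. Alternatives used DESeq2 1.42.0, limma 3.58.1 and sva 3.50.0 in R 4.3.3. The tests were checked on simulated data. Members and lists were chosen with earlier results of these data known. Values in every library are given for the 6 members with the smallest p, the 3 pairs with the smallest p and a fixed set of main enzymes; of the other pathway lists, up to 3 genes with an unadjusted p under 0.1 are named, the cut being set after seeing the data.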

Additional observations from a re-analysis of the deposited data

Results flagged for a closer look

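In groups of 5 libraries, a single library was set apart from the others by a gap larger than Dixon's critical share of the range (0.71). Of 114 groups of values examined, 6 were so, and chance gives about 5%. Untreated library 3 was low for Slc2a3, at 26.7 CPM, the next untreated values being 45.8 to 50.5 CPM, and for Dlst, at 124.7 CPM against 137.8 to 141.4 CPM. It was therefore high for the log2 ratio of Slc2a1 over Slc2a3, at 2.7 against 1.44 to 1.74. BT-11 library 1 was high for Slc16a7, at 12.3 CPM, where the remaining BT-11 values were 8.64 to 9.52 CPM, and low for the log2 ratio of Slc16a1 over Slc16a7, at 1.44 against 2.03 to 2.23. Untreated library 2 was high for the log2 ratio of Pdk1 over Pdk2, at -2.70 against -2.87 to -2.84.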

How the results depend on the processing

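No member gene passed the threshold in any of 24 alternatives, the smallest adjusted p being 0.433, and 13 of 36 members kept their direction in all of them. Across the table DESeq2 called 8 genes and edgeR 0. The number of members higher was 24, and ran from 19 to 27 when single libraries were left out; their median log2 fold change was 0.0301 and ran from 0.00478 to 0.048. Replicate numbers did not pair the libraries (correlations of deviations from -0.337 to 0.0811, and 0 of 10 libraries correlated best with their own number); with the replicate block 0 genes were called, 24 members were higher and the median was 0.0334. The cause of the following reversals was not tested. Myelin level was lower with BT-11 and its ranges in the groups barely overlapped, so that covariate and treatment cannot be told apart.

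With the myelin level as a covariate, log2 fold changes were 0.22 for Slc2a1, -0.33 for Slc2a3, 0.052 for Hk2, 0.19 for Aldoc, -0.0016 for Tpi1, -0.0042 for Pkm, -0.049 for Ldha, 0.09 for Ldhb, -0.016 for Slc16a7, -0.1 for Cs, -0.042 for Idh3a, -0.1 for Sucla2, -0.00043 for Suclg1, -0.12 for Mdh1, -0.093 for Pfkfb3, -0.0043 for Dlat and -0.12 for Pgm2l1. With 1 surrogate variable they were 0.13 for Slc2a1, -0.083 for Slc2a3, 0.057 for Hk2, 0.089 for Aldoc, -0.0056 for Ldha, 0.041 for Ldhb, -0.036 for Cs, -0.042 for Sucla2 and -0.044 for Mdh1. With the ribosomal RNA share, added after seeing the data, they were -0.054 for Gpi, -0.038 for Aldoa, -0.038 for Tpi1, -0.044 for Gapdh, -0.017 for Eno1, -0.0079 for Pdk1, -0.008 for Pdk2 and -0.055 for Idh3g. Without both libraries richest in choroid plexus transcripts they were -0.011 for Gpi, -0.01 for Aldoa, -0.0029 for Tpi1, -0.027 for Gapdh, -0.037 for Idh3g and 0.0082 for Ogdh, and the log2 ratio of Pdk1 over Pdk2 differed by -0.011. With upper-quartile scaling they were -0.006 for Tpi1, -0.0018 for Gapdh and -0.008 for Idh3g. Idh3b was 0.0017 when choroid plexus level was a covariate, and Slc2a1 was 0.002 with no filter on low counts and 0.00051 in DESeq2.

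When single libraries were left out, the range was -0.056 to 0.048 for Slc2a1, -0.052 to 0.14 for Slc2a3, -0.14 to 0.029 for Hk2, -0.02 to 0.052 for Gpi, -0.01 to 0.045 for Aldoa, -0.018 to 0.029 for Tpi1, -0.016 to 0.045 for Gapdh, -0.014 to 0.05 for Eno1, -0.029 to 0.085 for Cs, -0.038 to 0.0096 for Idh3b, -0.035 to 0.032 for Idh3g, -0.051 to 0.0083 for Ogdh, -0.011 to 0.089 for Sucla2 and -0.031 to 0.065 for Mdh1. For ratios it was -0.051 to 0.029 for Pfkp over Pfkm, -0.21 to 0.1 for Slc2a1 over Slc2a3 and -0.016 to 0.049 for Pdk1 over Pdk2. The number of members correlated with the endothelial level by both Pearson's r and Spearman's rho was 0, was 1 with scaling by library size only, was 0 with group means removed, and ran from 0 to 1 when single libraries were left out. With 5 rats a group, 5 members have intervals that reach past 1.25-fold.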
